A study of Mus musculus with 12 samples.

Results

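The genes described here are 10 regulators of the AP-1 and immediate early class, *Fos*, *Fosb*, *Fosl1*, *Fosl2*, *Jun*, *Junb*, *Jund*, *Atf3*, *Egr1* and *Ier3*, in mouse colonic epithelial organoids (colonoids). They were taken by gene name from a table of 54532 genes. Of the 10, 9 passed the filter on low values (at least 1 FPKM in at least 3 libraries), as did 12740 genes in all, and *Fosb* did not. The 12 poly-A RNA-seq libraries form 4 groups of 3.

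Control colonoids carried floxed *Hmox1* alleles (*Hmox1* fl/fl) and received vehicle or 200 μM hemin (heme with ferric iron and chloride) for 24 hours. The other 2 groups, labelled KO (*Hmox1* KO /Vil1 Cre), were given the same vehicle or hemin, and carried in addition a Cre recombinase under the villin promoter, which is active in intestinal epithelial cells. The label of replicate 3 of the hemin-treated KO group writes the genotype as *Hmox1* fl/fl /Vil1 Cre, while its title calls it KO. All colonoids came from mice 8 to 12 weeks old and were grown in medium conditioned by L-WRN cells, which supplies Wnt3a, R-spondin and noggin. The sources do not say whether the 3 libraries of a group came from separate animals or cultures, so the p-values measure the spread between these libraries, which may be technical.

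*Hmox1*, the targeted gene, encodes heme oxygenase-1, the enzyme that breaks down heme. Vehicle-treated controls had 7.62, 6.85 and 7.90 FPKM of it, and vehicle-treated colonoids labelled KO had 3.14, 2.11 and 2.31. After hemin the controls had 503, 483 and 382 FPKM, but those labelled KO had 1279, 1393 and 1271, which goes against the label. The FPKM covers the whole gene and cannot show whether the transcript held the deleted part. The word "labelled" is therefore kept throughout.

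The libraries held 11648801 to 25101868 fragments on genes (median 15346846). The 8 epithelial markers, *Epcam* and *Vil1* among them, were all tested and summed to between 5690 and 10118 FPKM. Of 16 markers of fibroblasts, leukocytes and endothelial cells, 0 passed the filter, and each list summed to at most 0.779 FPKM in any library. Their defining genes *Col1a1*, *Ptprc* and *Pecam1* had at most 4, 6 and 14 fragments in a library. Replicate 3 of the hemin-treated control group stood apart: relative to its group's median, genes with a transcript GC content under 45% were higher (median log2 difference 0.24, 3268 genes) and those with 60 to 65% were lower (-0.50, 455 genes). In the other 11 libraries the same 2 medians lay between -0.14 and 0.13. Of the 9 tested genes *Jund*, *Fosl1* and *Junb* lay furthest below the other replicates in that library, with values given below. Other libraries also differed within their groups. Chi-squared per degree of freedom over fragments was 33.9 and 31.8 between replicate 2 of the hemin-treated colonoids labelled KO and its group, against 3.73 between the others. For replicate 1 of the vehicle-treated controls it was 20.2 and 19.2, against 2.69. For replicate 3 of the hemin-treated controls it was 39.9 and 47.9, against 25.2.

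AP-1 is a dimeric transcription factor. A Jun protein (c-Jun, JunB or JunD) pairs with a Fos protein (c-Fos, FosB, Fra-1 from *Fosl1*, Fra-2 from *Fosl2*), with an ATF protein such as ATF3, or with another Jun protein, and the dimer binds DNA at sites close to TGANTCA or TGACGTCA. Many of these genes are immediate early genes, which need no new protein synthesis to be transcribed and which respond to growth factors, injury and stress through MAP kinases. *Egr1* encodes a zinc finger transcription factor of the same early response, and *Ier3* a small protein that acts on ERK signalling and survival. In the gut they are known for their part in growth factor signalling, repair of the epithelium and stress. The 24 hours between hemin and harvest are long against the usual course of an immediate early burst, and there was 1 time point.

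Promoter sequence is shown for 3 genes. *Fos* and *Atf3* passed in opposite directions in the 2 genotypes at 24 hours, and *Jun* did not pass with the FPKM as deposited and all 12 libraries fitted together in the 4 groups. Each is the 250 bases before the gene's start in RefSeq on the GRCm38.p6 build, read 5′ to 3′ on the gene's own strand. Of the 10 genes, 8 had such a window. The *Fos* window is at chr12:85473640-85473889 on the plus strand, and its capitals mark 2 copies of TGACG, the core of a cAMP response element, and a TATAAA box.
Fos: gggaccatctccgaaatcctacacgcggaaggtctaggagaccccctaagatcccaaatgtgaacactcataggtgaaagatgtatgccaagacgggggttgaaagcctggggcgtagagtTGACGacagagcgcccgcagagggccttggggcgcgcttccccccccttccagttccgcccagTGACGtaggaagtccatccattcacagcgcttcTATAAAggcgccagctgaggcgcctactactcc
The *Jun* window is at chr4:95052223-95052472 on the minus strand, and its capitals mark the AP-1-like letters TTACCTCA and TGACATCA, which lie 164 and 45 bases before the start.
Jun: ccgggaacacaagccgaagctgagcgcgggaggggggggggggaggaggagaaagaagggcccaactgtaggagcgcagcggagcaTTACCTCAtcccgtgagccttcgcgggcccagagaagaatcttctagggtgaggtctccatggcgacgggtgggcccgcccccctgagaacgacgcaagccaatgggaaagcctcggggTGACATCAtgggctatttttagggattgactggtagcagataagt
The *Atf3* window is at chr1:191183334-191183583 on the minus strand, with a start that lies inside the gene as the table bounds it. Its capitals mark CGTCA, which is TGACG read on the opposite strand, 7 bases before the start.
Atf3: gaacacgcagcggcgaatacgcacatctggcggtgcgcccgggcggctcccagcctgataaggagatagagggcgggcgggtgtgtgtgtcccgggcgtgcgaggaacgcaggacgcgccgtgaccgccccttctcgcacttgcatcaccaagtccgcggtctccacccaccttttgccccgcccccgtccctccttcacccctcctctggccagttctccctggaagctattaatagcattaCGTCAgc
On both strands of 32851 RefSeq windows of this length, TGACG was in 17.8%, TATAAA in 12.4%, TGACATCA in 2.93% and TTACCTCA in 0.728%. TGACG was also found in the windows of *Fosb* and *Junb*, so that 4 of the 8 windows held it. No window of the 8 held TGANTCA (6.75% of all windows), TGACGTCA (1.55%, a motif that itself contains TGACG) or a CArG box (1.47%). A match is only a match of letters.

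By level, *Jund*, *Junb* and *Ier3* led with vehicle and *Fosb* was lowest everywhere. FPKM is per length, so levels can be set side by side between genes. In vehicle-treated controls the order of the group means was *Jund* (89.5 ± 7.78, SD, n = 3), *Ier3* (77.8 ± 6.79), *Junb* (76.4 ± 9.43), *Fos* (38.5 ± 0.743), *Jun* (29.0 ± 2.19), *Fosl2* (23.8 ± 2.19), *Egr1* (15.5 ± 0.269), *Atf3* (15.5 ± 0.994), *Fosl1* (5.76 ± 1.19) and *Fosb* (0.0555 ± 0.0323). The libraries of *Jund* and *Ier3*, of *Ier3* and *Junb*, and of *Egr1* and *Atf3* overlapped in that order, and the other neighbours did not. In the vehicle-treated colonoids labelled KO, *Junb* (88.5 ± 2.82) stood above *Jund* (78.6 ± 3.57) without overlap, and *Ier3* had 30.0 ± 1.36. With hemin, *Egr1* moved up to stand between *Junb* and *Ier3* in the control colonoids (51.0 ± 10.6), with libraries that overlapped both, and between *Ier3* and *Fos* in those labelled KO (56.0 ± 3.68), with libraries that overlapped those of *Ier3* alone.

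**Figure D1:**
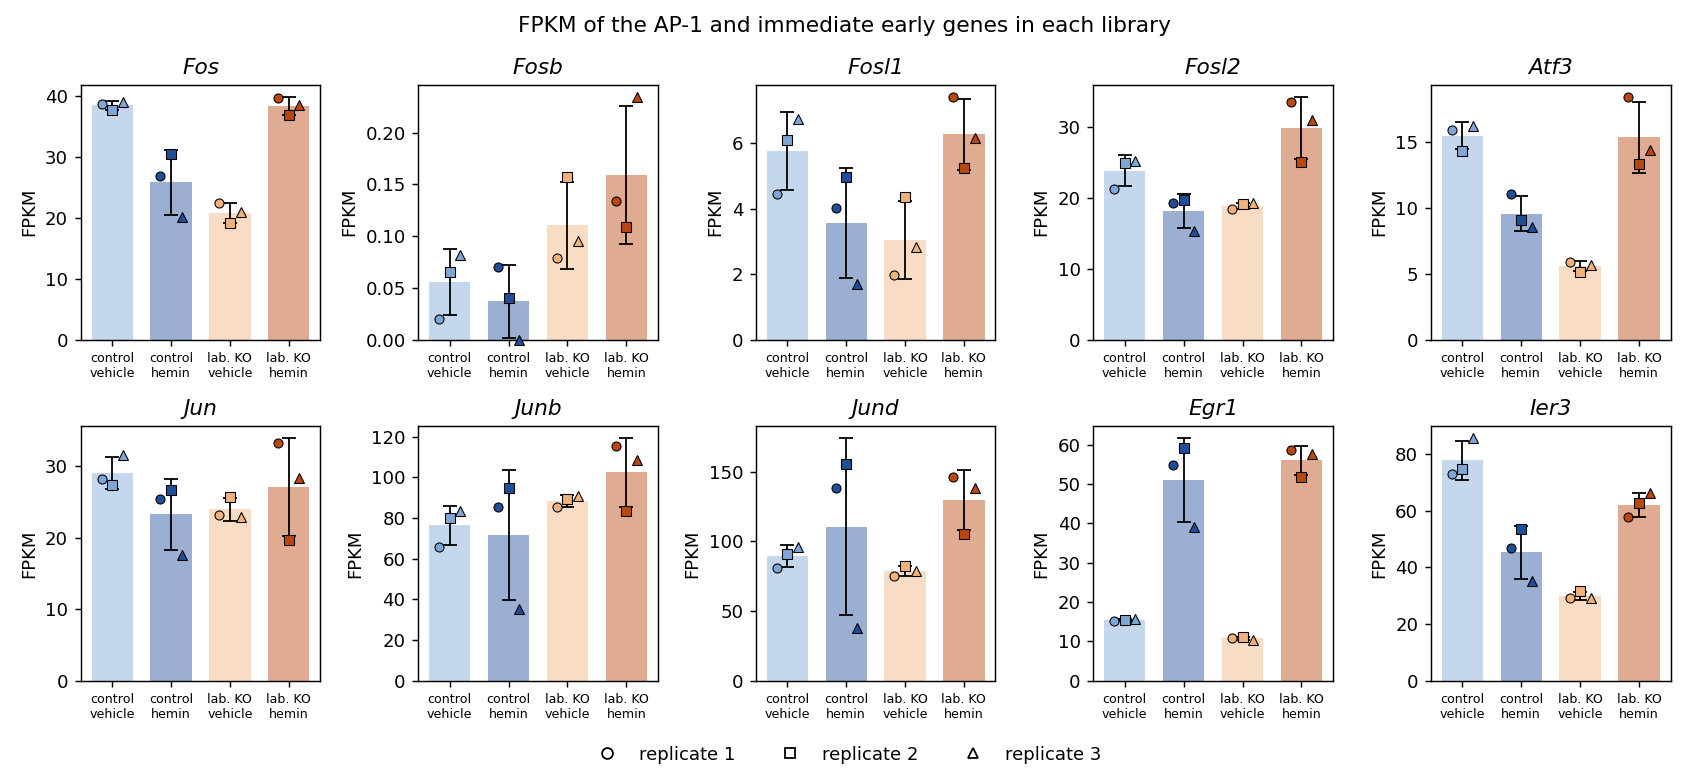
FPKM of the 10 genes in each of the 12 libraries, 1 panel per gene, each with its own vertical axis from 0. Points are libraries, "lab. KO" stands for labelled KO, bars are group means and error bars are the SD (n = 3). *Fos*, *Fosl2*, *Atf3* and *Ier3* go down with hemin in the control group and up in the group labelled KO, *Egr1* goes up in both, and replicate 3 of the hemin-treated control group sits far below the others for *Jund* (37.9 against 138 and 155).

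Whether the colonoids labelled KO answer heme differently from controls is the question of the interaction between genotype and hemin. The response to hemin was more positive in colonoids labelled KO for *Atf3*, *Ier3*, *Fosl1*, *Fos*, *Fosl2* and *Egr1*, 6 of the 9 tested, and for 0 was it more negative. Among all tested genes 23.8% passed this test (limma, adjusted p-value under 0.05), 13.3% in the positive and 10.5% in the negative direction. With a 2-fold threshold added, 5 of the 9 passed, against 5.13% of all genes. When the values were rescaled to TPM, which gives every library the same sum, 3 of the 9 passed, against 7.11% of the 15495 genes tested then. With 1 gene, *Gm23935*, left out of that sum, 5 of the 9 passed, against 20.6%. The median interaction of the 9 genes was 1.01 on the log2 scale, against 0.016 over all tested genes. Log2 values here and below are differences of log2(FPKM + 1), which understate the change of a low gene.

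In control colonoids, hemin went with lower *Fos*, *Fosl2*, *Atf3* and *Ier3* and with higher *Egr1*, so 5 of the 9 genes passed, 1 higher and 4 lower. The background was 49.9% of all tested genes, 23.2% higher and 26.7% lower, so that the share of the 9 genes was near the background. With a 2-fold threshold 1 of the 9 passed, against 8.11% of all genes. In colonoids labelled KO, 6 of the 9 passed and all 6 were higher with hemin (*Egr1*, *Atf3*, *Ier3*, *Fosl1*, *Fos* and *Fosl2*), against 60.4% of all genes, 29.9% higher and 30.4% lower, and 3 of the 9 passed with 2-fold, against 12.9%. The median over the 9 genes was -0.38 for control colonoids, beside -0.013 over all tested genes. For those labelled KO it was 0.86, beside -0.0019. Counted by libraries, the hemin and vehicle groups did not overlap for 6 of the 9 genes in control colonoids (1 higher, 5 lower) and for 7 in those labelled KO (all higher), against 52.4% and 74.4% of all tested genes (24.6% higher and 27.8% lower in control colonoids, 37.2% each way in those labelled KO). With TPM, 4 of the 9 passed for hemin in each genotype, against 27.8% (control) and 42.1% (labelled KO) of all genes.

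The genotypes were also compared within each treatment, with the same libraries as above, so these values are another view of the same 4 groups. With vehicle, *Ier3*, *Atf3*, *Fos* and *Egr1* were lower in colonoids labelled KO, 4 of the 9, against 34.2% of all genes (17.4% higher, 16.8% lower), and 2 of the 9 passed with 2-fold, against 6.8%. With hemin, *Fosl2*, *Atf3*, *Fos* and *Ier3* were higher in colonoids labelled KO, again 4 of the 9, against 34.4% of all genes (19.7% higher, 14.7% lower), and 0 of the 9 passed with 2-fold, against 6.01%. The medians of the 9 genes were -0.49 with vehicle and 0.57 with hemin, beside 0.019 and 0.037 over all tested genes. Libraries of the genotypes did not overlap for 8 of the 9 genes with vehicle (1 higher and 7 lower in those labelled KO) and for 5 with hemin (all higher), against 57.5% and 40.9% of all tested genes (30.6% higher and 26.9% lower with vehicle, 23% and 17.9% with hemin). With TPM, 3 of the 9 passed between vehicle-treated and 2 between hemin-treated genotypes, against 17.8% and 14.9% of all genes.

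**Figure D2:**
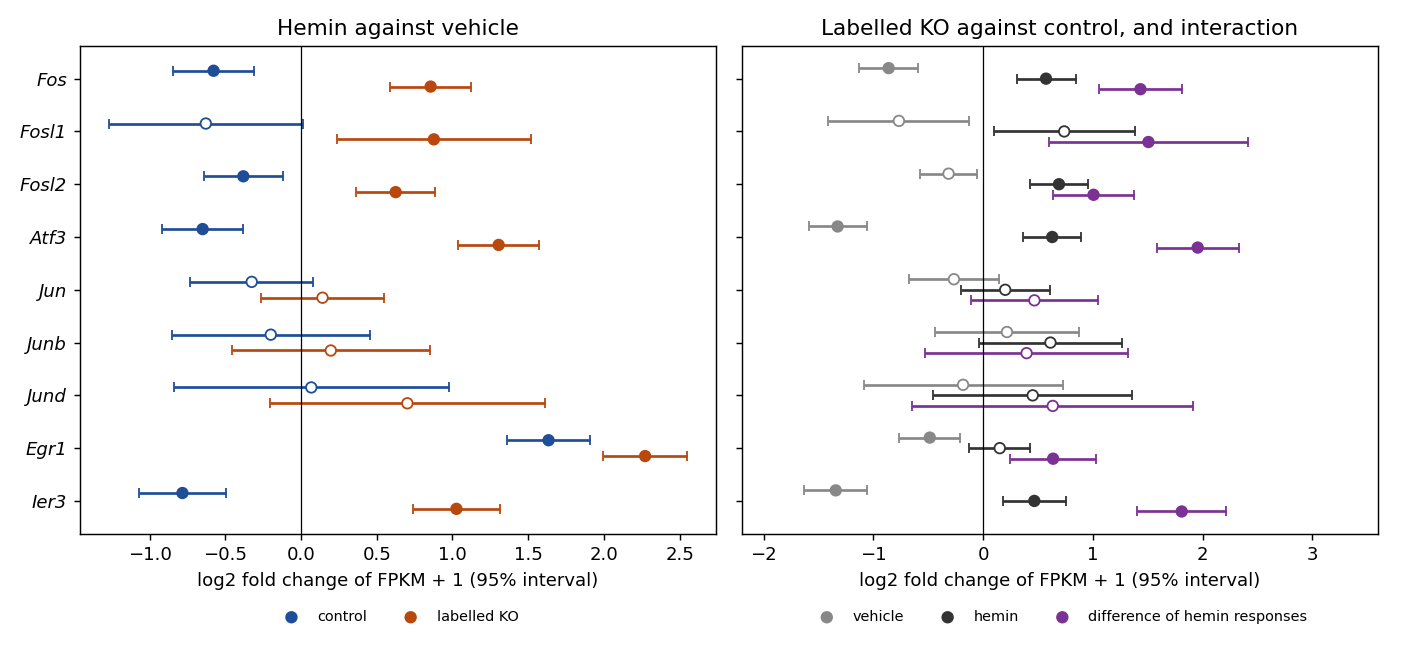
Log2 fold changes of FPKM + 1 for the 9 tested genes, with hemin against vehicle in each genotype on the left, and the genotypes compared within each treatment with the interaction (difference of the hemin responses) on the right. Points are limma estimates, bars are 95% intervals, and filled points passed an adjusted p-value of 0.05. For *Fos*, *Fosl2*, *Atf3* and *Ier3* the left panel has filled points on both sides of 0, and for *Egr1* both lie above 0.

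Among the Fos proteins, *Fos* (c-Fos, chr12:85473890-85477273, mm10) had the highest group mean of the family in all 4 groups. Its FPKM was 38.8, 37.7 and 39.1 in vehicle-treated controls and 26.9, 30.5 and 20.1 with hemin, so hemin-treated control libraries were all lower. Those labelled KO had 22.4, 19.1 and 21.0 with vehicle and 39.8, 36.9 and 38.6 with hemin, so hemin-treated libraries were all higher. *Fos* fell by 0.58 ± 0.12 (SE) on the log2 scale in control colonoids (adjusted p = 0.0023), rose by 0.86 ± 0.12 in those labelled KO (adjusted p = 0.00011), and the interaction was 1.43 ± 0.17 (adjusted p = 0.00017). The genotypes differed by -0.86 with vehicle (adjusted p = 0.00023) and by 0.57 with hemin (adjusted p = 0.0038). The levels of the hemin-treated colonoids labelled KO and of the vehicle-treated controls spanned 36.9 to 39.8 together, and their difference was not among the comparisons. The difference between hemin-treated genotypes lost its call when the values were rescaled to TPM (0.59, adjusted p = 0.058), and the rise in colonoids labelled KO was then 0.54 (adjusted p = 0.037). That difference kept its call when *Gm23935* was left out of the TPM sum.

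*Fosl2* encodes Fra-2 (chr5:32135801-32157842). Its FPKM was 21.3, 24.9 and 25.3 in vehicle-treated controls and 19.3, 19.7 and 15.4 with hemin, and 18.4, 19.1 and 19.2 with vehicle and 33.6, 25.1 and 31.0 with hemin in colonoids labelled KO. The hemin-treated libraries labelled KO spread widely, yet all lay above the vehicle-treated ones. *Fosl2* rose by 0.62 ± 0.12 in those labelled KO (adjusted p = 0.00088), and the interaction was 1.01 ± 0.17 (adjusted p = 0.0014). In control colonoids it fell by 0.38 ± 0.12 (adjusted p = 0.020). That call was lost without replicate 2 or 3 of the vehicle-treated controls (adjusted p = 0.066 and 0.070), without replicate 3 of the hemin-treated controls (adjusted p = 0.054) and with only the groups compared in the fit (adjusted p = 0.052). With TPM, all 3 calls were lost: the fall in control colonoids (-0.58, adjusted p = 0.057), the rise in those labelled KO (0.31, adjusted p = 0.27) and the interaction (0.89, adjusted p = 0.10). All 3 were kept when *Gm23935* was left out of the TPM sum. The difference of -0.32 between vehicle-treated genotypes did not pass (adjusted p = 0.062), and it passed without replicate 1 of the vehicle-treated controls, replicate 3 of the hemin-treated controls or replicate 2 of the hemin-treated colonoids labelled KO (adjusted p = 0.045, 0.023 and 0.034), with only the groups compared (0.0096), with limma-voom on the fragments recovered from the FPKM (0.039) and with GC content removed (0.0053).

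*Fosl1*, which encodes Fra-1 (chr19:5447703-5455945), was a low gene with 34 to 210 fragments per library. Its FPKM was 4.44, 6.10 and 6.74 in vehicle-treated controls and 4.01, 4.95 and 1.70 with hemin, and the groups overlapped. Those labelled KO had 1.97, 4.34 and 2.82 with vehicle and 7.40, 5.23 and 6.17 with hemin, with every hemin-treated library higher. The rise there was 0.88 ± 0.29 (adjusted p = 0.022) and the interaction 1.51 ± 0.41 (adjusted p = 0.022). The first call was lost without replicate 1 or 3 of either group labelled KO (adjusted p from 0.051 to 0.092). The interaction was lost without replicate 2 or 3 of the vehicle-treated controls, replicate 1 or 3 of the vehicle-treated or replicate 1 of the hemin-treated colonoids labelled KO (adjusted p from 0.0501 to 0.056). With TPM both calls were lost (0.70, adjusted p = 0.13, and 1.62, adjusted p = 0.079), as they were with no filter on low values (adjusted p = 0.057 and 0.054). With *Gm23935* left out of the TPM sum the rise was lost (0.81, adjusted p = 0.074) and the interaction was kept. In control colonoids the difference of -0.63 did not pass (adjusted p = 0.095). Single libraries moved it to -0.29 (without hemin replicate 3, adjusted p = 0.32) and to -0.86 (without hemin replicate 2), where it passed (adjusted p = 0.035), as it did with GC content removed (-0.55, adjusted p = 0.041), a step described below. The genotypes differed by -0.77 with vehicle and by 0.74 with hemin, and neither passed (adjusted p = 0.065 and 0.073). The first passed without replicate 2 or 3 of the hemin-treated controls or replicate 2 of the vehicle-treated colonoids labelled KO (adjusted p = 0.047, 0.013 and 0.036), with only the groups compared (0.032), with limma-voom (0.034) and with GC content removed (0.0076). The second was 0.97 without replicate 2 (adjusted p = 0.028) and 0.40 without replicate 3 of the hemin-treated controls (adjusted p = 0.20), and it passed with GC content removed (0.66, adjusted p = 0.024).

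*Fosb* (chr7:19302696-19310051), the remaining Fos family gene, was close to the floor of 3 fragments. It had 2 to 7 fragments per library in vehicle-treated controls, 0 to 5 with hemin, 8 to 17 in vehicle-treated and 12 to 21 in hemin-treated colonoids labelled KO. Its FPKM was at most 0.234, it was left out by the filter on low values, and no fold is given. With no such filter it entered the fit and passed between hemin-treated genotypes alone (adjusted p = 0.046), where the mean FPKM was 0.0369 in controls and 0.159 in those labelled KO. With it, 5 of 10 genes passed in that comparison, and 5 of 10 passed for hemin in colonoids labelled KO and for the interaction, beside 14.8%, 28.6% and 10.5% of the 29296 genes then tested.

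Summed over the 4 genes, Fos family FPKM was 64.6, 68.8 and 71.2 in vehicle-treated controls and 50.3, 55.2 and 37.2 with hemin. It was 42.8, 42.7 and 43.1 in vehicle-treated and 80.9, 67.3 and 76.0 in hemin-treated colonoids labelled KO. The sums thus went the way of *Fos* itself. *Fos* held 56.6% ± 3.01 of the family sum in vehicle-treated controls and 48.5% ± 3.74 in vehicle-treated colonoids labelled KO, where *Fosl2* held 44.1% ± 0.962 against 34.9% ± 1.69 (SD, n = 3). The *Fosl2* shares of these 2 groups did not overlap (33.0% to 36.2% and 43.0% to 44.7%), and they were not tested.

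The Jun genes supply the obligate partner of Fos proteins. With the FPKM as deposited and all 12 libraries fitted together in the 4 groups, they did not pass any of the 5 comparisons. *Jun* (c-Jun, chr4:95049034-95052222) had FPKM of 28.2, 27.3 and 31.5 in vehicle-treated controls and 25.4, 26.7 and 17.6 with hemin. Those labelled KO had 23.2, 25.7 and 22.9 with vehicle and 33.2, 19.7 and 28.3 with hemin, so that the groups overlapped there. The differences were -0.33 in control colonoids (95% interval -0.73 to 0.080, adjusted p = 0.17) and 0.14 in those labelled KO (-0.27 to 0.55, adjusted p = 0.53), the latter -0.19 with TPM. The interaction was 0.47 with an interval of -0.11 to 1.04, so changes of the size seen for *Fosl2* lie inside it, and single libraries moved it from 0.29 (without replicate 3 of the hemin-treated controls, adjusted p = 0.35) to 0.67 (without replicate 2 of the hemin-treated colonoids labelled KO, adjusted p = 0.0498). Between vehicle-treated genotypes *Jun* differed by -0.27 (adjusted p = 0.31), which passed with only the groups compared (adjusted p = 0.020).

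*Junb* (chr8:84974484-84978718) and *Jund* (chr8:70698949-70700616) have the most GC-rich transcripts of the 10 genes, 62.6% and 67.1%, against a median of 49.7% over tested genes. *Junb* FPKM was 65.7, 79.9 and 83.5 in vehicle-treated controls and 85.3, 94.8 and 35.3 with hemin, and 85.3, 89.4 and 90.8 with vehicle and 115, 83.5 and 109 with hemin in colonoids labelled KO. *Jund* FPKM was 81.0, 91.3 and 96.3 in vehicle-treated controls and 138, 155 and 37.9 with hemin. Colonoids labelled KO had *Jund* at 75.1, 82.2 and 78.5 with vehicle and 146, 105 and 138 with hemin. In both genes 1 hemin-treated control library, replicate 3, lay below every other library, at 39.3% (*Junb*) and 25.8% (*Jund*) of the mean of replicates 1 and 2.

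Without that library *Jund* was higher with hemin by 0.71 ± 0.13 in control colonoids (adjusted p = 0.00095) and by 0.70 ± 0.11 in those labelled KO (adjusted p = 0.00032), and the interaction was -0.0067 (adjusted p = 0.98). With it the 2 differences were 0.067 ± 0.41 (adjusted p = 0.91, and -0.13 with TPM) and 0.70 ± 0.41 (adjusted p = 0.16). The second passed with only the groups compared (0.70 ± 0.12, adjusted p = 0.0021) and was 0.37 with TPM (adjusted p = 0.49). *Junb* did not pass in either case, at 0.24 (adjusted p = 0.16) without and -0.20 (adjusted p = 0.60) with the library in control colonoids. Between hemin-treated genotypes *Junb* differed by 0.61 (adjusted p = 0.14), by 0.17 without that library (adjusted p = 0.34), and by 0.87 without replicate 2 of the controls, where it passed (adjusted p = 0.042). The same library stood at 38.1% for *Fosl1* (GC 58.5%) and between 67.5% and 84.8% for *Fos*, *Fosl2*, *Jun*, *Atf3*, *Egr1* and *Ier3* (GC 51.9% to 57.3%). When each library's dependence on GC content was removed by lowess, a step chosen after seeing the data, *Jund* passed in colonoids labelled KO (0.90, adjusted p = 0.0037) and not in control colonoids (0.28, adjusted p = 0.30), and *Junb* passed between the hemin-treated genotypes (0.50, adjusted p = 0.019).

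Over the 9 genes, leaving that library out gave 5 calls for hemin in control colonoids, 7 in those labelled KO, 6 between vehicle-treated and 4 between hemin-treated genotypes, and 6 for the interaction, against 56.6%, 68.8%, 45.7%, 43% and 37.1% of all genes. With GC content removed there were 6, 7, 6, 6 and 6 calls, against 58.1%, 66.7%, 42.4%, 43.5% and 33.1%. The signs of *Fos*, *Fosl1*, *Fosl2*, *Atf3* and *Ier3* were the same in all 5 comparisons in both cases.

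**Figure D3:**
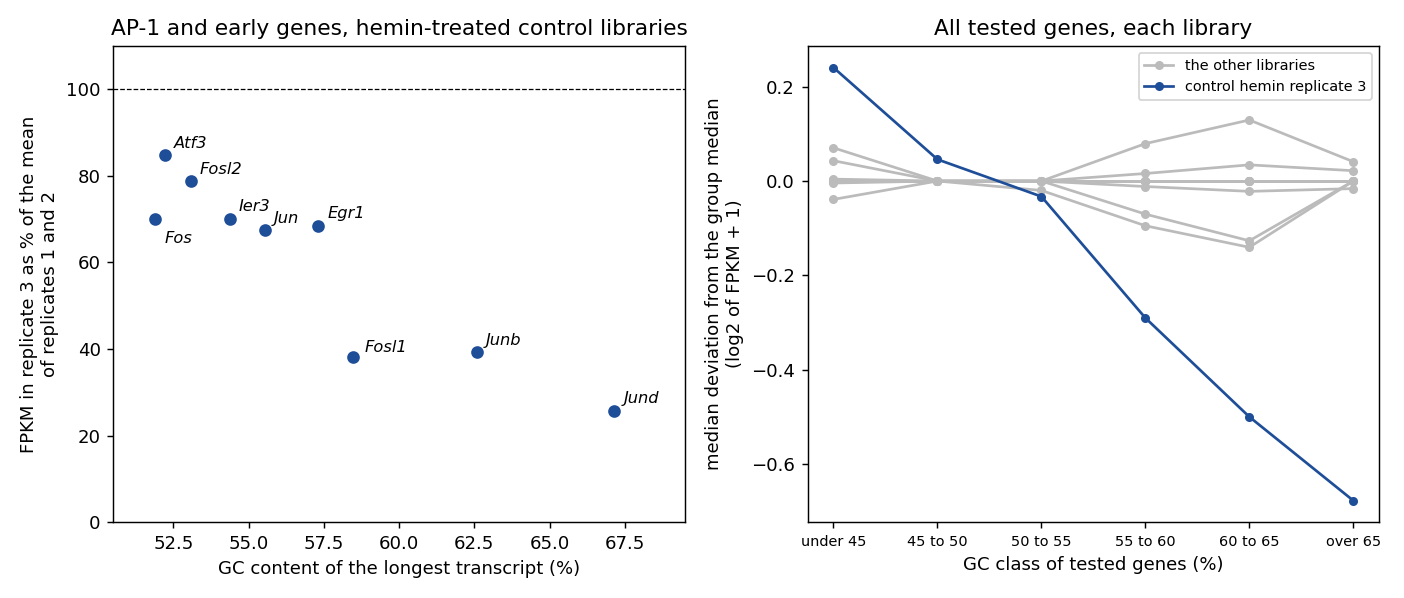
Replicate 3 of the hemin-treated control group as a percentage of the mean of replicates 1 and 2, against the GC content of each gene's transcript in percent, for the 9 tested genes, together with the median deviation of each library by class of GC content over all tested genes. The 3 genes with the highest GC content, *Jund*, *Junb* and *Fosl1*, are at 25.8%, 39.3% and 38.1%, and *Atf3* is at 84.8%.

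*Atf3*, a stress-inducible member of the ATF family that dimerises with Jun proteins, had the largest interaction of the 9 genes. Its locus is chr1:191170296-191218039. FPKM was 15.9, 14.3 and 16.2 in vehicle-treated controls and 11.0, 9.03 and 8.50 with hemin. In colonoids labelled KO it was 5.88, 5.13 and 5.68 with vehicle and 18.4, 13.3 and 14.3 with hemin, so the lowest and the highest libraries of the 12 both came from that genotype. *Atf3* fell by 0.65 ± 0.12 in control colonoids (adjusted p = 0.0010) and rose by 1.30 ± 0.12 in those labelled KO (adjusted p = 4.0e-06). The interaction was 1.96 ± 0.17 (adjusted p = 2.0e-05). Between genotypes *Atf3* differed by -1.33 with vehicle (adjusted p = 7.3e-06) and by 0.63 with hemin (adjusted p = 0.0019).

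*Ier3* (chr17:35821684-35822923) behaved like *Atf3* in sign. FPKM was 73.1, 74.7 and 85.6 in vehicle-treated controls and 47.0, 53.6 and 35.3 with hemin. In colonoids labelled KO it was 29.1, 31.6 and 29.2 with vehicle and 57.7, 62.6 and 66.2 with hemin, and no library overlapped between any 2 of the groups compared. *Ier3* fell by 0.78 ± 0.13 in control colonoids (adjusted p = 0.00047) and rose by 1.03 ± 0.13 in those labelled KO (adjusted p = 4.6e-05), with an interaction of 1.81 ± 0.18 (adjusted p = 5.2e-05). With vehicle it was lower in colonoids labelled KO by -1.34 (adjusted p = 1.2e-05). With hemin it was higher there by 0.47 (adjusted p = 0.017) and by 0.30 without replicate 3 of the hemin-treated controls (adjusted p = 0.018). The call was lost without replicate 3 of the hemin-treated colonoids labelled KO (adjusted p = 0.064), with TPM (0.47, adjusted p = 0.14) and with only the groups compared (adjusted p = 0.087). It was kept when *Gm23935* was left out of the TPM sum.

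With all 12 libraries, *Egr1* was the one gene of the 9 that rose with hemin in both genotypes. Its FPKM was 15.2, 15.5 and 15.8 in vehicle-treated controls and 54.8, 59.2 and 39.1 with hemin. Colonoids labelled KO had 11.0, 11.1 and 10.3 with vehicle and 58.6, 51.8 and 57.7 with hemin, a level that overlapped that of hemin-treated controls. *Egr1* rose by 1.63 ± 0.12 in control colonoids (adjusted p = 1.8e-06) and by 2.27 ± 0.12 in those labelled KO (adjusted p = 8.6e-08). The interaction of 0.64 ± 0.18 passed (adjusted p = 0.023) with the lower vehicle level in colonoids labelled KO (-0.49, adjusted p = 0.011), while the hemin-treated genotypes differed by 0.15 (95% interval -0.12 to 0.43, adjusted p = 0.39). With TPM the interaction (0.52, adjusted p = 0.33) and the difference between vehicle-treated genotypes (-0.37, adjusted p = 0.23) were both lost. With *Gm23935* left out of the TPM sum the interaction was lost (0.55, adjusted p = 0.053) and that difference was kept. The interaction was also lost without replicate 3 of the vehicle-treated controls, replicate 3 of the vehicle-treated or replicates 1 or 3 of the hemin-treated colonoids labelled KO (adjusted p from 0.052 to 0.059).

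Epithelial markers moved in the same groups. Their 8 genes summed to 8206 to 9148 FPKM in vehicle-treated and 8120 to 10118 in hemin-treated controls, and to 5690 to 5743 and 7506 to 8790 in those labelled KO. Of the 8, 5 passed the interaction, all more positive in colonoids labelled KO, and 5 were lower there with vehicle, beside 23.8% and 16.8% of all genes. With hemin 7 rose and 1 fell in colonoids labelled KO (median 0.78, beside 0.86 for the 9 genes), and 4 rose in control colonoids (median 0.25, beside -0.38). Of all genes 29.9% rose and 30.4% fell in the former and 23.2% rose in the latter. With TPM 1 was lower with vehicle (17.8% of all genes passed). All 5 interaction calls were then lost in limma (7.11% of all genes passed), with 0 of the 8 at an unadjusted p under 0.05 and a median of 0.34 against 0.49. Without TPM, limma-voom on the recovered fragments called 6, beside 23.4% of all genes. In bulk colonoids fewer cells of a type and less RNA per cell cannot be told apart, and the part of these markers in the results above was not tested.

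Of 29 other immediate early genes, 24 were tested. *Arc* and *Ier5l* were under 1 FPKM in both control groups and are left out of the counts, as are such genes of the other lists, a step added after their values were seen. In control colonoids 13 of the other 22 fell and 5 rose with hemin (median -0.55), beside 26.7% and 23.2% of all tested genes. In those labelled KO 7 rose and 7 fell (median 0.10), beside 29.9% and 30.4%. The interaction passed for 11, and 10 of these were more positive in colonoids labelled KO (median 0.27 against 0.016 over all tested genes), beside 23.8% of all genes and 13.3% more positive. With TPM the median over all tested genes was -0.31 for hemin in colonoids labelled KO. There 2 of the 22 rose and 9 fell (median -0.21), beside 42.1% of all genes passing. The interaction then passed for 5, 4 of them more positive, beside 7.11%. *Ctgf*, a matrix-associated growth regulator, fell by 2.15 in control colonoids and differed by 0.10 in those labelled KO (adjusted p = 0.20), an interaction of 2.25. *Sgk1*, a serum- and glucocorticoid-induced kinase, rose in both, by 1.44 and 3.61, which took its FPKM from 8.53 to 116 in those labelled KO. *Klf6*, a zinc finger transcription factor, followed the pattern of *Fos* (-0.84 and 0.50, interaction 1.34). *Myc* fell by 1.40 and 1.33, and its interaction of 0.07 did not pass (adjusted p = 0.78). *Nr4a1*, an orphan nuclear receptor, was the 1 gene with a more negative response in colonoids labelled KO (-0.96), with a mean FPKM of 4.96 with vehicle and 0.654 with hemin there.

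The inhibitors that MAP kinase signalling induces against itself were listed as 16 genes, of which 15 were tested. Of these *Spry4* was under 1 FPKM in both control groups (0.394 with vehicle and 0.237 with hemin) and is not counted. With hemin 8 of the other 14 were higher in colonoids labelled KO than in controls and 1 was lower (median 0.54 against 0.037 over all tested genes), beside 19.7% higher and 14.7% lower of all genes. Hemin itself went with 8 lower and 1 higher in control colonoids (median -0.36) and with 6 lower and 4 higher in those labelled KO (median -0.094). The shares of all genes were 26.7% lower and 23.2% higher in control colonoids, and 30.4% and 29.9% in those labelled KO. The interaction passed for 8, 7 of them more positive in colonoids labelled KO (median 0.44), beside 23.8% of all genes. With TPM 7 were higher between hemin-treated genotypes, beside 14.9% of all genes passing, and 1 passed the interaction, beside 7.11%. *Dusp7* and *Dusp8*, also MAP kinase phosphatases, fell in both genotypes, by 0.86 and 1.11 in control colonoids and by 0.87 and 0.53 in those labelled KO. *Dusp5* and *Dusp6*, phosphatases of ERK, rose with hemin in those labelled KO by 1.33 and 1.01, and *Dusp6* also rose in control colonoids, by 0.24. *Dusp1* fell by 1.23 in control colonoids and differed by -0.088 in those labelled KO (adjusted p = 0.58), an interaction of 1.14. *Errfi1*, an inhibitor of the EGF receptor, was lower by 1.02 with vehicle in colonoids labelled KO and rose there by 0.70 with hemin.

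Of 18 genes listed as known AP-1 targets, 9 were tested. Of these *Ereg*, an EGF receptor ligand, and *Mmp7*, a matrix metalloproteinase, passed the filter through the control colonoids alone. In vehicle- and hemin-treated controls the mean FPKM of *Ereg* was 19.7 and 11.6, against 0.0488 and 0.00561 in colonoids labelled KO, and *Mmp7* had 10.4 and 3.40 against 0.554 and 0.101. From such levels a fall is close to 0 on the log2(FPKM + 1) scale, so their interactions (0.67 and 0.88) were bound to be positive and are not counted here. Of the other 7, 5 had a more positive response to hemin in colonoids labelled KO and 1 a more negative one (median 1.00, against 23.8% of all tested genes passing). In control colonoids 5 of the 7 fell with hemin, beside 26.7% of all genes, and in those labelled KO 3 rose and 4 fell, beside 29.9% and 30.4%. These counts of falls and rises were the same with TPM, beside 27.8% (control) and 42.1% (labelled KO) of all genes passing. The interaction then passed for 4, all more positive, beside 7.11%. The 3 that rose are *Areg* (1.11), *Plaur* (1.65) and *Hbegf* (1.31), which encode 2 ligands of the EGF receptor and the urokinase receptor. *Ccnd1*, which encodes cyclin D1, fell in both genotypes, by 2.72 and 1.72. The direction of these genes is a count of a list and says nothing of AP-1 binding.

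**Figure D4:**
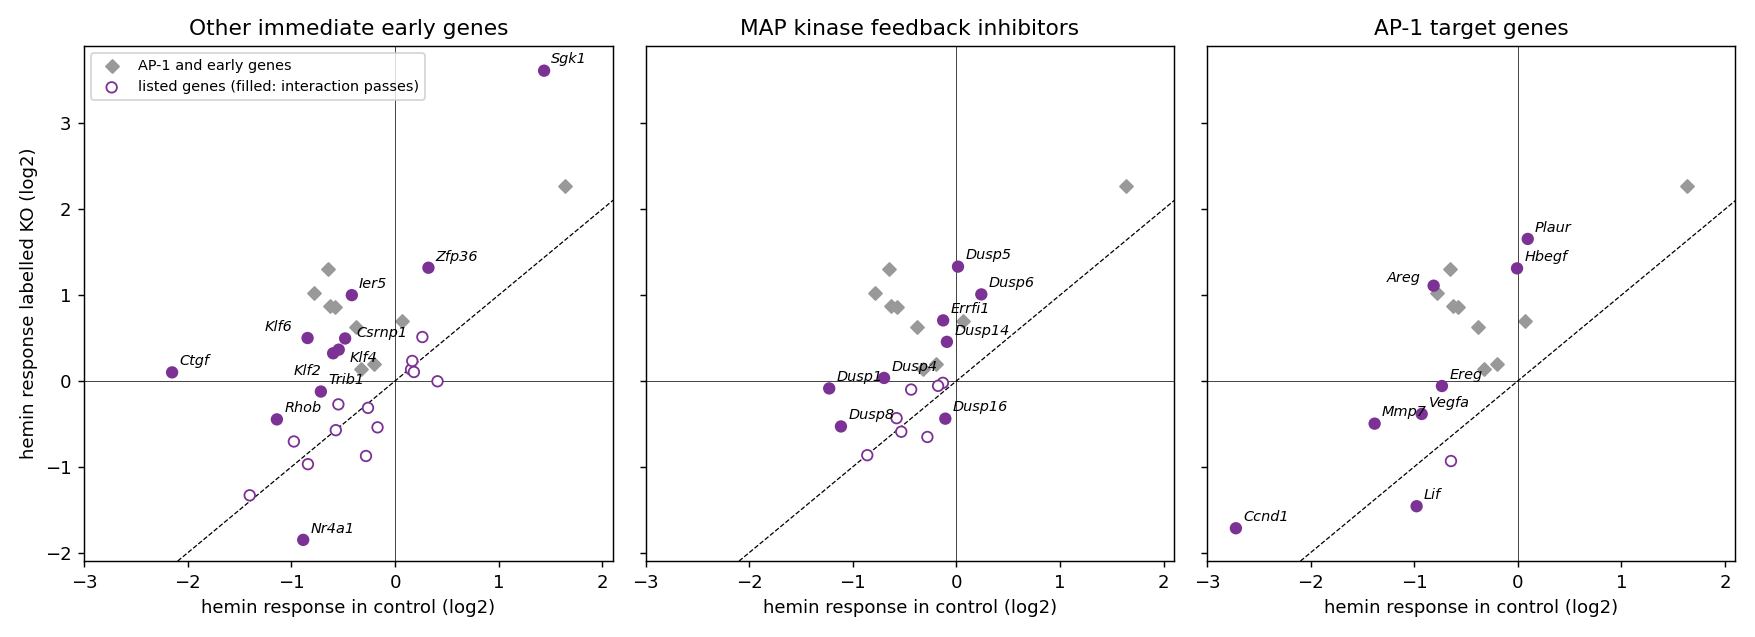
Response to hemin (log2 difference of FPKM + 1) in control colonoids on the horizontal axis and in colonoids labelled KO on the vertical axis, for 3 lists. Purple points are the listed genes, filled and named where the interaction passed, grey diamonds are the 9 tested genes described above, and the dashed line marks equal responses. Filled points above the line number 10 of 24, 7 of 15 and 7 of 9, with the genes under 1 FPKM in a genotype drawn too, and the last count holds *Ereg* and *Mmp7*, whose place above the line is set by levels under 1 FPKM in colonoids labelled KO.

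The transcripts whose profile over the 12 libraries came nearest were found for genes with an SD of at least 0.5 on the log2 scale, which *Fos*, *Fosl2*, *Jun* and *Junb* did not reach. The measure is the root mean square difference of log2(FPKM + 1) after each gene was centred on its own mean over the 12 libraries, and it is a description. Nearest to *Atf3* were *Areg* (0.15) and *Sh3tc1* (0.17), and nearest to *Ier3* were *Zfand2a* (0.15) and *Lgals3* (0.19). *Areg* had mean FPKM of 134 and 75.8 in vehicle- and hemin-treated controls and of 55.5 and 121 in those labelled KO, beside 15.5, 9.52, 5.56 and 15.3 for *Atf3*. For *Egr1* they were *Neu1* (0.11) and *Slc1a4* (0.18), for *Fosl1* *Ier5* (0.19) and *Gm43587* (0.31), and for *Jund* *Tmem160* (0.22) and *Pet100* (0.23). Replicate 3 of the hemin-treated controls was the lowest library of its group for all 4 genes nearest to *Fosl1* and *Jund*.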

How the data were processed

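Per the labels and the methods, Novogene prepared, sequenced and analysed the libraries. The submitters' processing notes name fastp, HISAT2 2.0.5, featureCounts 1.5.0-p3 and mm10. Whether counting used strand is not given in the sources used here, so reads of overlapping genes cannot be told apart. The authors deposited FPKM (fragments counted on a gene, divided by its length and by the size of the library) in 1 table. FPKM times gene length were whole multiples of 1 fragment (within 0.01), so fragments were recovered. The deposited FPKM were already scaled between libraries.

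From there, limma 3.58.1 (R 4.3.3) modelled log2(FPKM + 1) by 1 mean for each group, moderated with an intensity trend, for genes with at least 1 FPKM in at least 3 of 12 libraries. P-values were two-sided, adjusted by the Benjamini-Hochberg method over the 12740 genes tested, and passed under 0.05. Alternatives were adjusted over the genes tested in them, such as 15495 with TPM, 12730 with GC content removed and 29296 with no filter. Groups came from the sample labels. The steps were tested on simulated data. Figures were drawn with matplotlib 3.10.9.

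All 10 genes are named. Of each list, up to 4 genes with the largest change in a comparison may be named, as may 2 nearest profiles per gene. The genes and lists were chosen with earlier results of these data known. Alternatives were another pseudocount, other filters, TPM, median-of-ratios scaling, a replicate block, no trend, only the groups compared, a 2-fold threshold, limma-voom and each library left out. Median-of-ratios scaling had the same factor (1.00869) in all 12 libraries, so it could not move libraries against each other. GC adjustment, TPM without *Gm23935* and list counts without genes whose mean was under 1 FPKM in both groups of a genotype were added after seeing the data.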

Additional observations from a re-analysis of the deposited data

Results flagged for a closer look

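The response to hemin differed between the genotypes by a test of the difference itself (the interaction in limma, adjusted over all tested genes) for *Hmox1* (2.81 on the log2 scale) and for 6 of the 9 tested genes, beside 23.8% of all tested genes. These are *Atf3* (1.96), *Ier3* (1.81), *Fosl1* (1.51), *Fos* (1.43), *Fosl2* (1.01) and *Egr1* (0.64). With TPM the calls of *Fosl1*, *Fosl2* and *Egr1* were lost (1.62, 0.89 and 0.52, adjusted p = 0.079, 0.10 and 0.33). With *Gm23935* left out of the TPM sum the call of *Egr1* alone was lost (0.55, adjusted p = 0.053). *Hmox1* was higher in the hemin-treated libraries labelled KO than in the hemin-treated control libraries, against the label.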

How the results depend on the processing

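The number of the 9 genes that passed stayed within 1.5 times its value under most alternatives. With TPM it was 2 instead of 4 between hemin-treated genotypes and 3 instead of 6 for the interaction (14.9% and 7.11% of all genes). With only the groups compared it was 7 instead of 4 between vehicle-treated genotypes, where 46.5% of all genes passed instead of 34.2%. With a 2-fold threshold it was 1 for hemin in control colonoids, 3 for hemin in those labelled KO, 2 between vehicle-treated and 0 between hemin-treated genotypes. Leaving out 1 library at a time gave 4 to 6 for hemin in control colonoids, 5 to 7 in those labelled KO, 4 to 6 between vehicle-treated and 3 to 6 between hemin-treated genotypes, and 4 to 7 for the interaction. The share of all genes then ranged from 43.2% to 56.6%, 54.2% to 68.8%, 27.2% to 45.7%, 27.4% to 43% and 18.5% to 37.1%. With *Gm23935* left out of the TPM sum, 5, 5, 4, 4 and 5 of the 9 genes passed in the same order. The shares of all genes were 43.7%, 53.1%, 31.5%, 29.4% and 20.6%. With TPM the median over all tested genes was -0.18, -0.31, 0.15 and 0.027 in the 4 comparisons of groups and -0.12 in the interaction. With the FPKM as deposited it was -0.013, -0.0019, 0.019, 0.037 and 0.016.

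Values that changed sign passed in neither case, except where said. With TPM, *Jun* and *Junb* in colonoids labelled KO were -0.19 and -0.14 for hemin and *Jund* in control colonoids was -0.13. With TPM without *Gm23935* the same 3 were -0.080, -0.029 and -0.043. Leaving out 1 library at a time, the difference between hemin-treated genotypes ranged from -0.026 to 0.27 for *Egr1* and from -0.19 to 0.81 for *Jund*, and the interaction from -0.044 to 0.65 for *Junb* and from -0.0067 to 1.00 for *Jund*, each lowest without replicate 3 of the hemin-treated controls. For hemin in control colonoids it ranged from -0.46 to 0.24 for *Junb* and from -0.29 to 0.71 for *Jund*, each highest without that library, where *Jund* passed. *Jund* there was also below 0 without vehicle replicate 1 (-0.0024) and hemin replicate 1 (-0.21). For hemin in those labelled KO, *Jun* ranged from -0.017 without hemin replicate 1 to 0.35. The cause was not tested.

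Nothing in the labels says whether the replicate numbers pair the libraries. Deviations of same-numbered libraries correlated at -0.042 on average (-0.33 to 0.18 over 18 pairs). Those of other pairs correlated at 0.023 (-0.39 to 0.34 over 36 pairs), and this cannot show how the libraries were paired. With the replicate number as a block, 5, 6, 4, 4 and 6 genes passed in the 5 comparisons, the same numbers as without, beside 46.9%, 57.8%, 31.2%, 31% and 20.1% of all genes. *Fosb*, with at most 21 fragments in a library, was tested only with no filter on low values.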

Other observations

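A list of 10 genes of the integrated stress response, the pathway that also induces *Atf3*, was tested in full. It holds the transcription factors ATF4 and CHOP, related factors and genes they activate. With vehicle 8 were lower and 0 were higher in colonoids labelled KO (median -0.58). Hemin went with 6 higher and 1 lower in those labelled KO and with 2 higher and 3 lower in control colonoids, and the interaction passed for 5, all more positive in those labelled KO. Beside these stand 16.8% of all genes lower with vehicle, 29.9% higher and 30.4% lower with hemin in those labelled KO, 23.2% and 26.7% in control colonoids, and 23.8% passing the interaction. With hemin 1 was higher and 3 were lower in those labelled KO than in controls, beside 19.7% and 14.7% of all genes. The lower ones were *Atf5* (-1.13), *Asns* (-0.64) and *Ddit3* (-0.56). With TPM 4 were lower with vehicle, 3 rose with hemin in those labelled KO, and 3 passed the interaction. The shares of all genes passing were 17.8%, 42.1% and 7.11%. *Trib3*, a pseudokinase that binds ATF4, fell by 1.31 in control colonoids and rose by 1.94 in those labelled KO, from a mean FPKM of 0.476 to 4.73 there. *Chac1*, which degrades glutathione, rose in both genotypes, by 1.14 and 3.45, and *Ddit3*, which encodes CHOP, by 0.51 and 1.16. *Ppp1r15a*, a phosphatase subunit that reverses the stress response, fell by 0.70 and rose by 0.58, the signs seen for *Atf3*. *Atf4* itself rose by 0.56 in those labelled KO and differed by -0.029 in control colonoids (adjusted p = 0.90).

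Of 20 MAP kinases and SRF or TCF factors, all tested, the interaction passed for 3, 1 more positive and 2 more negative in colonoids labelled KO, a share under the 23.8% of all genes. With TPM 0 passed it in limma (2 at an unadjusted p under 0.05), beside 7.11% of all genes. Without that rescaling limma-voom on the recovered fragments called 4, 2 in each direction, beside 23.4%. Hemin went with 8 higher, among them *Map2k4*, *Map2k3* and *Map2k2* (0.96, 0.94 and 0.85), and 2 lower in those labelled KO, beside 29.9% and 30.4% of all genes. In control colonoids 4 were higher and 2 lower, beside 23.2% and 26.7%. With TPM 2 were higher and 3 lower in those labelled KO (median -0.23 against 0.10), beside 42.1% of all genes passing. Of 4 tested partners of AP-1 dimers, *Batf2* fell by 0.65 in control colonoids and rose by 0.43 in those labelled KO, and *Jdp2*, which passed the filter through the controls alone, had mean FPKM of 2.44 and 3.63 there and of 0.333 and 0.601 in those labelled KO.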
